A study of Mus musculus with 11 samples.

Results

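The let-7 family is a set of near-identical microRNAs (miRs), and 9 of its guide strands had an assay among the 517 mouse miR assays of the table: mmu-let-7a, mmu-let-7b, mmu-let-7c, mmu-let-7d, mmu-let-7e, mmu-let-7f, mmu-let-7g, mmu-let-7i and mmu-miR-98. They were taken by assay name, without the starred assays, which measure the passenger strands of the same hairpins. The rule uses names and no measured value, and the family was picked for description with earlier results of these data known. RNA came from whole aorta of 11 female apoE-/- mice, which lack apolipoprotein E and form atherosclerotic plaques, and each mouse was run on an array of its own. All 3 groups carried the apoE-/- genotype. The control group was 4 mice on normal diet, and the other groups were 4 mice after 3 months and 3 mice after 10 months of a high fat diet containing 0.15% cholesterol, 19.5% casein and 21% fat as crude fat. Every sample is labelled with an age of 6 to 8 weeks, which mice after 3 or 10 months of diet had passed at sampling. The labels give no age at sampling, for the controls either, so time on the diet and age cannot be told apart. The treatment label of the 10-month mice gives 3 months, and the sample titles and the design text, which give 10 months, were followed. The design text also counts 4 biological replicates in each group, where 3 mice at 10 months were analysed here. The groups address how aortic miRs change after 3 and after 10 months of the diet.

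let-7 was first found as a timing gene of the worm Caenorhabditis elegans and is conserved in mammals. Its members are cut from hairpin precursors by Drosha and Dicer, the protein LIN28 blocks that maturation, and the guide strand directs Argonaute to messenger RNAs through its seed. Known mammalian targets include the growth regulators RAS and HMGA2. In the vessel wall let-7 is known as an abundant family of smooth muscle and endothelial cells, where it restrains growth and transforming growth factor beta signalling.

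The mature sequences are shown because the members are told apart by single bases outside a common seed. All 9 matched a name in the RefSeq table of build GRCm38.p6. Capitals mark the seed, bases 2 to 8 counted from 1 at the 5′ end.
mmu-let-7a: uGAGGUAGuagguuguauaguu
mmu-let-7b: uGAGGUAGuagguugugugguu
mmu-let-7c: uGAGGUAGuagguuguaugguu
mmu-let-7d: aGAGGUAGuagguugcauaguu
mmu-let-7e: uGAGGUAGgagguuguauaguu
mmu-let-7f: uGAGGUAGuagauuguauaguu
mmu-let-7g: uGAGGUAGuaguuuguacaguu
mmu-let-7i: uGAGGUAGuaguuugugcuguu
mmu-miR-98: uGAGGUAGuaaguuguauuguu
All 9 had the seed GAGGUAG, which 11 of the 1679 mature names in that table carry. Relative to let-7a, with let-7a's base first, let-7c differed by A19G, let-7e by U9G and let-7f by G12A, each a single base. let-7b differed by A17G and A19G, let-7d by U1A and U16C, and miR-98 by G11A and A19U. let-7g, with G12U and U18C, and let-7i, with G12U, A17G, U18C and A19U, shared the changes at positions 12 and 18. Whether an assay also reads a member 1 base away was not tested.

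The same table places several members side by side on one strand, within 10000 bases. One let-7a gene lies with let-7f and let-7d genes on chromosome 13, and let-7b lies with a let-7c gene on chromosome 15. The other let-7a gene neighbours miR-100 on chromosome 9, the other let-7c gene neighbours miR-99a on chromosome 16, and let-7e neighbours miR-125a on chromosome 17. miR-98 and the other let-7f gene are neighbours on chromosome X. let-7g on chromosome 9 and let-7i on chromosome 10 had no member within that distance.

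The measurement was a threshold cycle, the amplification cycle at which a well's signal crosses the threshold. A cycle is 1 unit of log2 and runs backwards, so earlier means more template, and 40 marks a well with no amplification. A miR counted as detected before cycle 35. Each array had 322 to 380 detected miRs and a mean cycle of 23.2 to 26.9 over the 285 miRs detected in all 11 mice, the latest being replicate 2 of the 10-month group. A level here is how many cycles before that array mean a miR came up, on the log2 scale. miR-145 and miR-143, the miRs that define smooth muscle, stood among the high values, with levels of 11.2 to 12.9 for miR-145 and 7.31 to 8.34 for miR-143. Fewer cells of a type and less RNA per cell cannot be told apart in whole tissue. The labels call the mice biological replicates.

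Of the 9 members, 7 were detected in all 11 mice. let-7f was detected in 10 mice, and miR-98 stood at 40 cycles in all 11. let-7e came earliest, with a median of 18.9 cycles (17.98 to 22.9 over mice), and ranked 29 of 517 assays. let-7c followed at 18.99 cycles (rank 33), then let-7a at 19.9 (rank 48), let-7i at 20.06 (rank 55), let-7b at 20.09 (rank 56), let-7g at 20.98 (rank 68), let-7d at 21.06 (rank 69) and let-7f at 21.5 (rank 77). All neighbours in that order had overlapping ranges over mice. The order is of cycles, and assays can differ in efficiency, so it is not an order of amounts of RNA.

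**Figure D1:**
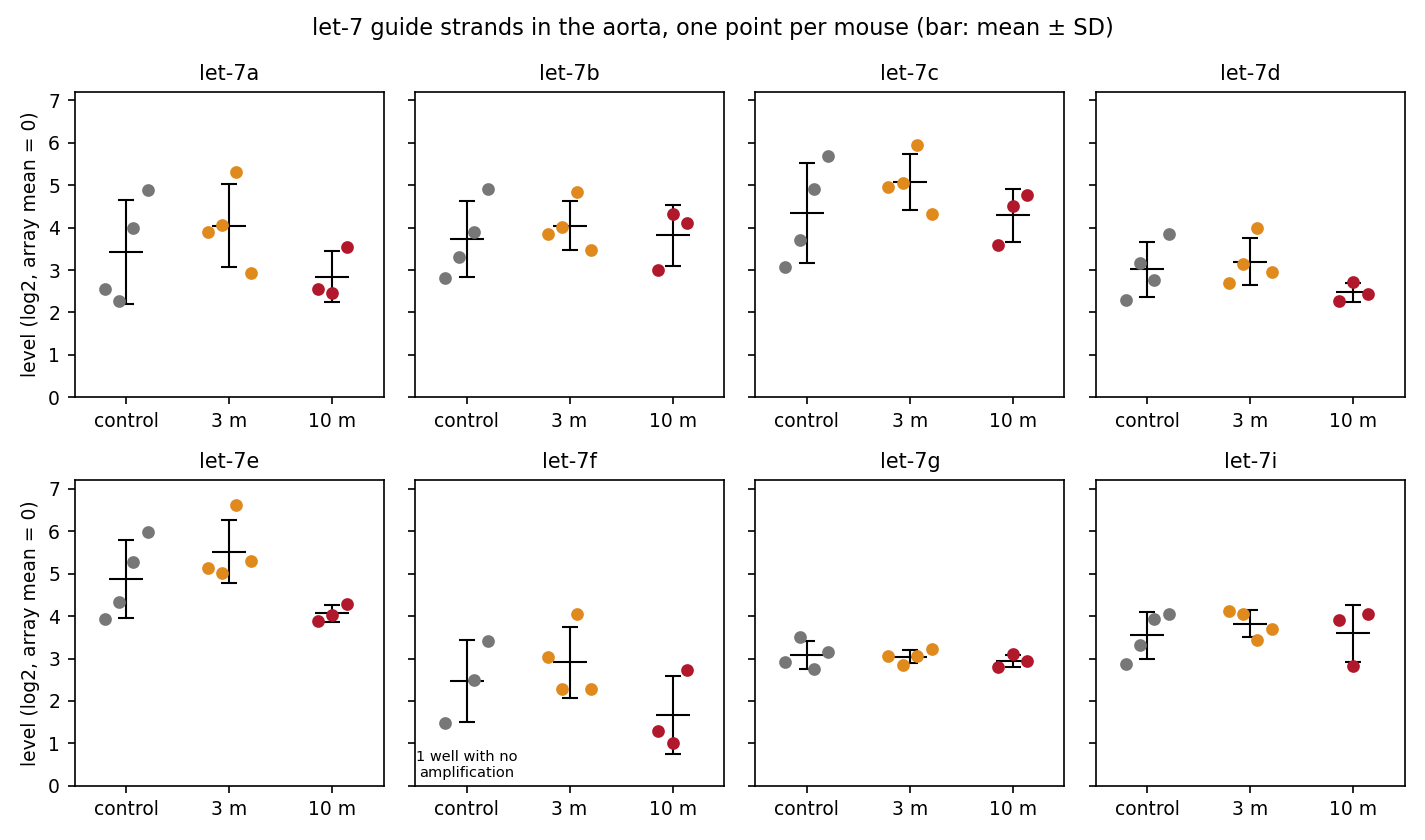
Level (log2, array mean set to 0) of 8 let-7 guide strands in each mouse, with control, 3 months and 10 months of high fat diet from left to right in each panel. Points are mice, bars are the mean ± SD of the detected wells; the 3 let-7e points at 10 months lie between 3.89 and 4.28, below all 4 points at 3 months, and let-7g spans 2.76 to 3.52 over all 11 mice.

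No let-7 guide strand passed the test in any of the 3 comparisons. The test was limma's moderated test over 353 miRs, with Benjamini-Hochberg adjustment over all of them and a threshold of 0.05. In 10-month against control aortas, limma called 16 of 353 miRs (4.53%), 60 had an unadjusted p under 0.05 (17%), and 56 had groups that did not overlap (15.9%). In 3-month against control aortas it called 0 (0%), 30 had an unadjusted p under 0.05 (8.5%), and 19 had groups that did not overlap (5.38%). In 10-month against 3-month aortas it called 0 (0%), 46 had an unadjusted p under 0.05 (13%), and 43 had groups that did not overlap (12.2%). Of the 8 members with a fitted value, 0, 0 and 1 had an unadjusted p under 0.05 in these 3 comparisons. The same 1 member, let-7e, was the one whose groups did not overlap, at 10 against 3 months. That count of 1 of 8 was close to the shares of 13% and 12.2% over all miRs tested in that comparison.

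The mean of the let-7 members overlapped between all groups, and its differences between groups depended on single mice and on the reference. Over the 8 fitted members the median log2 fold relative to control was -0.10 at 10 months and 0.47 at 3 months, and it was -0.75 at 10 against 3 months, beside 0.0049, -0.05 and 0.06 over all 353 miRs. Folds were above 0 for 3, 7 and 0 of the 8 members in that order of comparisons. These values include let-7f with its undetected control well set to the detection limit. So treated, let-7f gave 2.24 at 10 months and 3.49 at 3 months against control, and with that well left missing -0.80 and 0.44. Over the 7 members detected in all mice the medians were -0.14, 0.32 and -0.72. Folds were above 0 for 2, 6 and 0 of those 7. The first 2 comparisons share the control mice and the last uses the same diet-fed mice, so these counts are not separate observations. The mean level of the 7 members detected in all mice was 3.43 ± 0.29 (SD, n = 3) after 10 months, against 3.72 ± 0.75 (SD, n = 4) in controls, a difference of -0.29. After 3 months it was 4.11 ± 0.45 (SD, n = 4), 0.39 above control, and the difference at 10 against 3 months was -0.67. The mice ranged from 2.92 to 4.65 in controls, from 3.70 to 4.74 at 3 months and from 3.14 to 3.73 at 10 months, and all 3 pairs of groups overlapped. Referred to the small-RNA control assays in place of the array mean, the difference at 3 months against control was -0.36 and that at 10 against 3 months 0.23, the opposite signs. The control assays came up at a mean of 21.1 cycles in replicate 2 at 10 months, against 15.6 to 18.1 in the other mice. Referred to them, the mean of the 7 stood at -4.73, -2.39 and -3.40 in the 3 mice at 10 months. At 3 months it stood at -3.48, -3.30, -3.84 and -4.33, so only replicate 2 at 10 months lay above all 3-month mice. That reference was not rerun without replicate 2. The comparison of 3 months with control, whose sign turned as well, holds no 10-month mouse. With the array median as the centre the difference was -0.044 at 10 months against control. With the deposited values it was 0.031 at 3 months against control. Leaving out 1 mouse at a time moved the difference at 10 months against control between -0.55 (without control replicate 1) and 0.021 (without control replicate 4), and that at 3 months against control between 0.12 (without control replicate 1) and 0.70 (without control replicate 4). With the control assays, the median of all miRs itself shifted by -0.81 at 3 months against control and 0.97 at 10 against 3 months. A reference taken per array shifts the members and that median alike. The members' distance from the median, above it at 3 months against control and below it at 10 against 3 months, is therefore unchanged. It is the same result by arithmetic and no second observation.

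let-7e was the member with the lowest p. Its level was 3.94, 4.33, 5.28 and 5.98 in the control mice, 5.14, 5.02, 6.63 and 5.30 after 3 months and 3.89, 4.03 and 4.28 after 10 months. Every 10-month mouse was below every 3-month mouse, while the 10-month and control mice overlapped at the low end of the controls. The log2 fold at 10 against 3 months was -1.46 (SE 0.54, 95% interval -2.66 to -0.25), or 2.75-fold lower, with an unadjusted limma p of 0.0225 and an adjusted p of 0.294. Over the alternatives its adjusted p was between 0.194 and 0.543, and the fold stayed below 0, from -1.62 to -0.55. Against control let-7e stood at -0.82 at 10 months (SE 0.54, limma adjusted p = 0.598) and 0.64 at 3 months (SE 0.50, limma adjusted p = 0.761). miR-1, a striated muscle marker, was the miR outside the family with the highest correlation with let-7e (Pearson r = 0.88 over 11 mice). miR-1 had levels of 0.83, 1.31, 1.59 and 2.52 in controls, 1.43, 0.55, 2.90 and 2.07 at 3 months and -0.35, -0.77 and 0.19 at 10 months. Every 10-month mouse had less miR-1 than every mouse of both other groups, unlike let-7e, whose 10-month and control levels overlapped. Of the 7 striated muscle markers listed, 7 were detected in at least 1 control mouse, 5 at 3 months and 6 at 10 months, and their summed level spanned 6.80 to 7.17 in controls, 7.08 to 8.26 at 3 months and 6.68 to 7.93 at 10 months. miR-133a makes up most of that sum. At 10 months against control, miR-133a gave 0.25, miR-133b -0.24 and miR-206 0.30, beside -1.87 for miR-1 (limma adjusted p = 0.0961). At 10 against 3 months they gave -0.29, 0.06 and 0.14, beside -2.05 for miR-1 (limma adjusted p = 0.161). In both comparisons the groups of miR-133a, miR-133b and miR-206 overlapped, so miR-1 does not stand for the list. The heart markers miR-208, miR-208b and miR-499 stood at 40 cycles in most mice. The part of muscle RNA in the let-7e values was not tested.

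A comparison within each mouse does not depend on how the arrays are centred. let-7e was set against the mean cycle of the 7 members detected in all mice. It came 1.02, 0.95, 1.34 and 1.34 cycles before that mean in controls, 1.18, 0.99, 1.89 and 1.60 cycles before it at 3 months and 0.75, 0.61 and 0.55 cycles before it at 10 months. The 10-month mice lay below both other groups without overlap, with a mean of 0.63 ± 0.10 (SD, n = 3) against 1.42 ± 0.40 at 3 months and 1.16 ± 0.21 in controls (SD, n = 4 each). let-7e was the only one of the 7 members for which both held. The mean of the 7 includes let-7e itself. The share of all miRs that separate on this measure was not computed, so the count has no background beside it. let-7e was the earliest of the 7 in 4 of 4 controls, in 3 of 4 mice at 3 months and in 0 of 3 at 10 months. At 10 months let-7c was earliest in replicates 2 and 3 and let-7i in replicate 1. This contrast was picked out after the values were seen and carries no p.

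**Figure D2:**
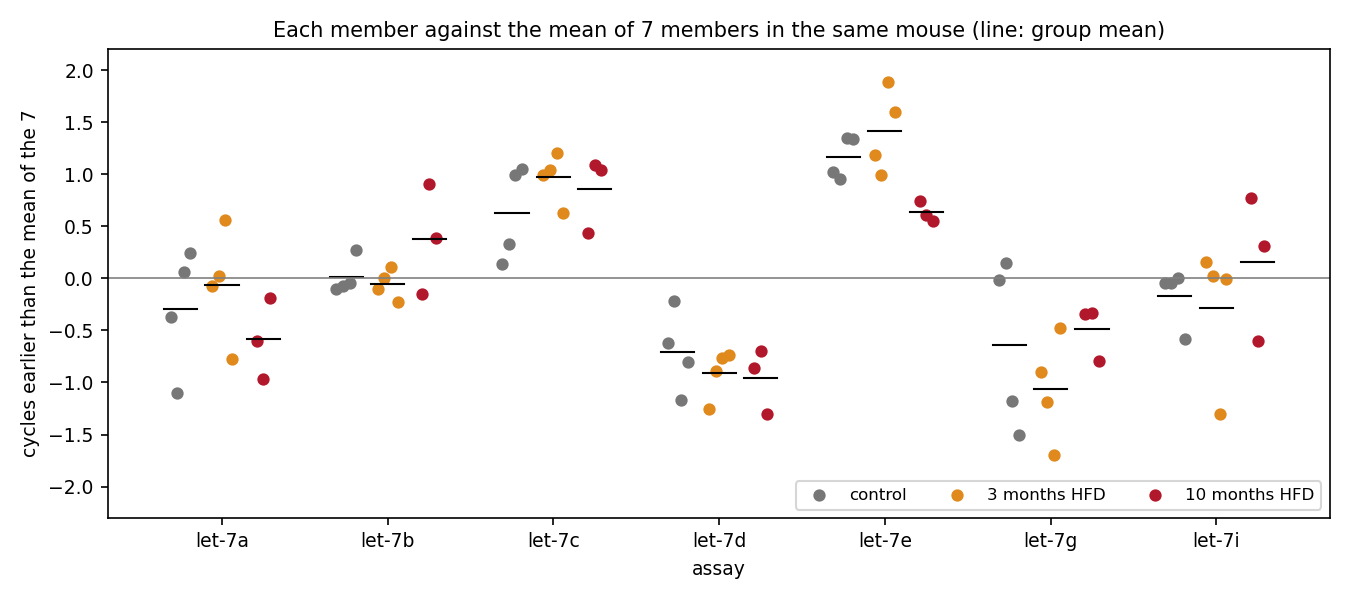
Cycles by which each of 7 members came before the mean of the 7 in the same mouse (positive is earlier), with control, 3 months and 10 months of high fat diet from left to right for each member. Points are mice and lines are group means; for let-7e the 10-month mice lie at 0.55 to 0.75, below the 0.99 to 1.89 at 3 months and the 0.95 to 1.34 in controls.

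let-7a, let-7f and let-7d, whose genes lie together on chromosome 13, all stood on average lower at 10 than at 3 months, except let-7d with the control assays as the reference (0.19), and none of these differences passed the test. let-7a had levels of 2.55, 2.28, 3.99 and 4.89 in controls, 3.89, 4.05, 5.30 and 2.93 at 3 months and 2.55, 2.45 and 3.54 at 10 months. All groups overlapped, and the controls alone spanned 2.28 to 4.89. let-7a against control gave -0.58 at 10 months (SE 0.72, 95% interval -2.18 to 1.02) and 0.62 at 3 months (SE 0.66, interval -0.86 to 2.09), with limma adjusted p-values of 0.800 and 0.842. Without control replicate 4 the fold at 10 months was -0.094. At 10 against 3 months let-7a gave -1.20 (SE 0.72, limma adjusted p = 0.497). let-7d had levels of 2.30, 3.16, 2.76 and 3.84 in controls, 2.70, 3.14, 3.98 and 2.96 at 3 months and 2.28, 2.72 and 2.43 at 10 months. The 10-month values lay at the low end of both other groups and overlapped them. let-7d gave -0.54 at 10 months against control (SE 0.42, limma adjusted p = 0.648), 0.18 at 3 months (SE 0.39, limma adjusted p = 0.940) and -0.72 at 10 against 3 months (SE 0.42, limma adjusted p = 0.497).

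let-7f had levels of 1.48, 2.50 and 3.42 in 3 controls, 3.05, 2.28, 4.05 and 2.28 at 3 months and 1.28, 1.00 and 2.73 at 10 months. In control replicate 2 it stood at 40 cycles. In that mouse the other 7 detected members came up between 20.97 and 23.02 cycles, and let-7f in the other 10 mice between 20.4 and 25.9. The fold depends on how that well is treated. With it left missing, let-7f gave -0.80 at 10 months against control (SE 0.66, limma adjusted p = 0.665), 0.44 at 3 months (SE 0.62, limma adjusted p = 0.908) and -1.24 at 10 against 3 months (SE 0.62, limma adjusted p = 0.460). With it set to the detection limit of 35 cycles, the folds against control were 2.24 (SE 2.60) and 3.49 (SE 2.41) at 10 and 3 months, and neither passed the test.

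let-7b and let-7c, which differ at a single base and share a locus on chromosome 15, moved together from mouse to mouse. let-7b had levels of 2.81, 3.30, 3.90 and 4.92 in controls, 3.86, 4.03, 4.85 and 3.47 at 3 months and 3.00, 4.33 and 4.12 at 10 months. The controls enclosed every diet-fed mouse. let-7b gave 0.08 at 10 months against control (SE 0.55, limma adjusted p = 0.983), 0.32 at 3 months (SE 0.51, limma adjusted p = 0.926) and -0.24 at 10 against 3 months (SE 0.55, limma adjusted p = 0.871). let-7c had levels of 3.06, 3.71, 4.92 and 5.70 in controls, 4.96, 5.06, 5.95 and 4.33 at 3 months and 3.58, 4.52 and 4.78 at 10 months. The lowest 3-month mouse lay within the 10-month values, and the controls again spread over most of both. let-7c gave -0.06 at 10 months against control (SE 0.64, limma adjusted p = 0.985), 0.73 at 3 months (SE 0.59, limma adjusted p = 0.764) and -0.78 at 10 against 3 months (SE 0.64, limma adjusted p = 0.631).

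let-7g and let-7i, each from a locus of its own, had the smallest standard errors among the members. let-7g had levels of 2.91, 3.52, 2.76 and 3.14 in controls, 3.06, 2.84, 3.05 and 3.22 at 3 months and 2.80, 3.09 and 2.94 at 10 months. The 11 mice stayed within 1 cycle of each other. let-7g gave -0.14 at 10 months against control (SE 0.27, 95% interval -0.73 to 0.45), -0.04 at 3 months (SE 0.25, interval -0.58 to 0.51) and -0.10 at 10 against 3 months (SE 0.27, interval -0.69 to 0.49), so changes of 1 cycle lie outside these intervals on this scale. Its limma adjusted p-values were 0.888, 0.972 and 0.903. The intervals do not cover the choice of reference. With the control assays let-7g lay outside them at 3 months against control (-0.79) and at 10 against 3 months (0.81). let-7i had levels of 2.87, 3.33, 3.94 and 4.06 in controls, 4.12, 4.05, 3.44 and 3.69 at 3 months and 3.92, 2.82 and 4.04 at 10 months. The lowest value was replicate 2 of the 10-month group, the array with the latest mean cycle. let-7i gave 0.04 at 10 months against control (SE 0.41, limma adjusted p = 0.985), 0.27 at 3 months (SE 0.38, limma adjusted p = 0.885) and -0.23 at 10 against 3 months (SE 0.41, limma adjusted p = 0.845). With the control assays as the reference, the signs of the let-7g and let-7i folds turned at 10 against 3 months, to 0.81 and 0.68. Those control assays came late in replicate 2 at 10 months (21.1 cycles, against 15.6 to 18.1 in the other mice). With the deposited values the 2 signs turned as well, to 0.48 and 0.35. At 3 months against control, which holds no 10-month mouse, the control assays gave let-7g -0.79 and let-7i -0.48.

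**Figure D3:**
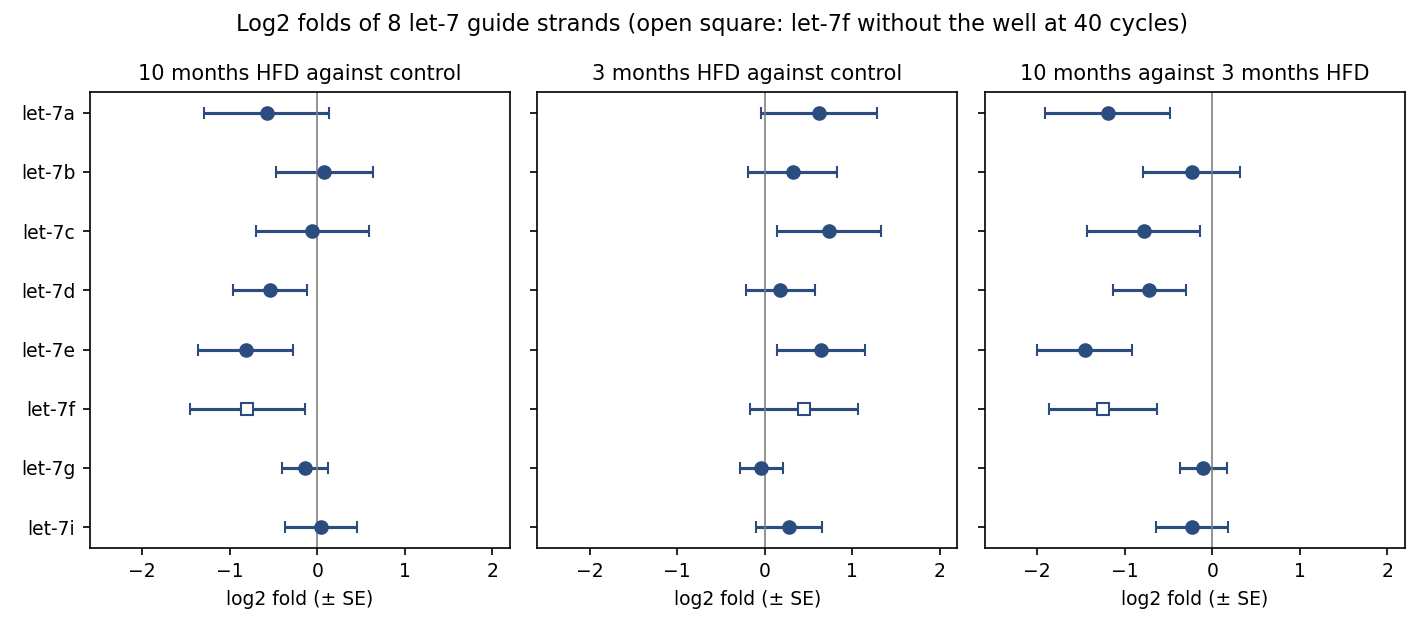
Log2 folds of the 8 fitted let-7 guide strands (horizontal axis, with bars of ± 1 SE from limma) at 10 months against control, 3 months against control and 10 against 3 months of high fat diet. Open squares give let-7f with its well at 40 cycles left missing; all 8 values at 10 against 3 months are below 0, with let-7e the lowest at -1.46, while with the control assays as the reference let-7b, let-7c, let-7d, let-7g and let-7i are above 0 there.

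The members fell into those that varied together over mice and those that did not. Among let-7a to let-7f, the 15 pairs had Pearson correlations of 0.68 to 0.94 over mice (median 0.83), with n = 11 mice, or 10 for pairs with let-7f. The 13 pairs with let-7g or let-7i had correlations of -0.29 to 0.50 (median 0.23). The pairs 1 base apart were let-7a with let-7c (r = 0.91), let-7a with let-7e (r = 0.89), let-7a with let-7f (r = 0.93) and let-7b with let-7c (r = 0.94). let-7g and let-7i, which share the changes at positions 12 and 18, had r = -0.29. Over all 40470 pairs of miRs detected in every mouse the median was -0.01. Each array is centred on the mean of these same miRs, which draws that median towards 0, so it is no independent background. It was not taken with the control assays as the reference. With group means removed, the correlations were 0.64 to 0.96 (median 0.84) within let-7a to let-7f and -0.34 to 0.47 (median 0.17) for pairs with let-7g or let-7i. With the control assays as the reference, the ranges were 0.59 to 0.93 and 0.14 to 0.76 and overlapped, with medians of 0.80 and 0.40. All points of a correlation share their arrays and their centring.

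**Figure D4:**
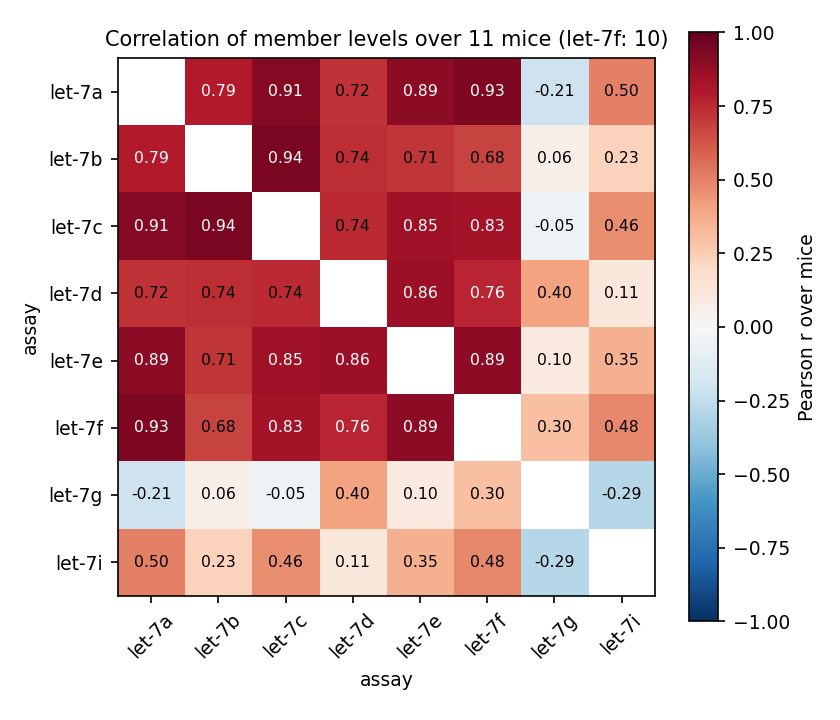
Pearson correlation of levels (log2, array mean set to 0) over 11 mice between 8 let-7 guide strands, with 10 mice for pairs with let-7f. Each cell is 1 pair; the block from let-7a to let-7f holds 0.68 to 0.94, and the rows of let-7g and let-7i hold -0.29 to 0.50.

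Within the family, let-7a and let-7f were most like each other, and so were let-7b and let-7c. let-7d was most like let-7e (r = 0.86), and let-7e was most like let-7a (r = 0.89). let-7g had no close partner, its highest correlation being with let-7d (r = 0.40), and let-7i was most like let-7a (r = 0.50). Outside the family, let-7a was most like its own passenger strand let-7a* (r = 0.78), and let-7b was most like miR-19a (r = 0.74). let-7c and let-7d were both most like miR-877*, with r = 0.81 and 0.76. let-7g was most like miR-29b* (r = 0.79), and let-7i was most like miR-141 (r = 0.91). miR-141 is 1 of the 7 epithelial miRs listed. The correlations of the others with let-7i are not given here, so miR-141 does not stand for that list. Against the mean of the 7 members, the highest of 278 other miRs were miR-877* (r = 0.85, Spearman rho 0.79), miR-26b (r = 0.80, rho 0.85), let-7c-1* (r = 0.78, rho 0.73), let-7a* (r = 0.75, rho 0.80) and miR-1 (r = 0.71, rho 0.61). Without the 2 mice farthest from the median of that mean, replicate 3 at 3 months and control replicate 4, miR-1 dropped to r = 0.37, and the others had r = 0.76, 0.80, 0.80 and 0.62. miR-450a-5p ran most opposite, with r = -0.89 and -0.70 without those mice. All of these r values are over 11 mice, or 9 where 2 were left out.

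None of the 7 passenger strands passed the test. They are the other arm of let-7 hairpins. From 1 hairpin a guide and its passenger are made in equal numbers and part after loading. let-7a, let-7c and let-7f each have 2 genes, and let-7c-1* is the passenger of only the let-7c gene on chromosome 16. A guide assay and a starred assay can therefore read different sets of hairpins. Of the 7 passenger assays, let-7d* and let-7i* are printed from RefSeq because their groups separated, with bases 2 to 8 in capitals.
mmu-let-7d*: cUAUACGAccugcugccuuucu
mmu-let-7i*: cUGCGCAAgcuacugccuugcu
let-7d* had levels of 1.19, 2.09, 0.36 and 0.98 in controls, 1.06, 0.75, 1.83 and 0.53 at 3 months and -1.40, -0.04 and -0.80 at 10 months. Every 10-month mouse was below every mouse of both other groups. The log2 fold of let-7d* at 10 months against control was -1.90 (SE 0.49, 95% interval -3.00 to -0.80), or 3.73-fold lower, with an unadjusted limma p of 0.00315 and an adjusted p of 0.0617, short of the threshold. The adjusted p was under 0.05 in 4 of 25 alternatives and between 0.0296 and 0.660 over all of them, while the fold was below 0 in all 25, from -2.26 to -1.57. At 10 against 3 months let-7d* gave -1.79 (SE 0.49, limma adjusted p = 0.161), and at 3 months against control -0.11 (SE 0.46, limma adjusted p = 0.956).

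Within a mouse, let-7d* came 1.11, 1.07, 2.41 and 2.86 cycles after its guide let-7d in controls, 1.64, 2.39, 2.15 and 2.43 cycles after it at 3 months and 3.68, 2.76 and 3.23 cycles after it at 10 months. The 10-month mice lay above the 3-month mice, and replicate 2 of the 10-month group lay below control replicate 4. let-7d and let-7d* were measured in different assay blocks of the table.

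let-7i* had levels of -5.12, -4.09, -5.29 and -6.50 in controls, -6.13, -6.02, -5.25 and -5.91 at 3 months and -4.54, -4.00 and -4.30 at 10 months. Every 10-month mouse was above every 3-month mouse, and control replicate 2 lay within the 10-month values. let-7i* gave 1.55 at 10 against 3 months (SE 0.50, limma adjusted p = 0.216) and 0.97 at 10 months against control (SE 0.50, limma adjusted p = 0.408). let-7i* on average stood higher and let-7d* lower at 10 than at 3 months, also in all 25 alternatives, while the guides let-7i and let-7d gave -0.23 and -0.72.

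let-7a*, let-7c-1* and let-7g* were detected in all 11 mice and none passed the test. Their folds at 10 months against control were -0.51, -0.15 and -0.13, with limma adjusted p-values of 0.726 to 0.983. At 3 months against control they were 0.22, 0.78 and 0.12, and at 10 against 3 months -0.74, -0.93 and -0.26. The signs for let-7a* and let-7c-1* were those of let-7a and let-7c in all 3 comparisons. let-7b* and let-7f* were detected either early or not at all. let-7b* came up at 22.9 to 24.8 cycles in 3 of 4 controls, in 0 of 4 mice at 3 months and in 2 of 3 at 10 months. let-7f* came up at 23.9 to 26.3 cycles in 3 of 4 controls, in 1 of 4 mice at 3 months and in 2 of 3 at 10 months. Both stood at 40 in control replicate 4, in replicates 2 to 4 at 3 months and in replicate 2 at 10 months. Such wells are uncommon in the table: of 147 assays whose detected wells all came before cycle 27, 13 had a well at 40, and let-7f, let-7b* and let-7f* were 3 of them. Their fitted folds, such as 7.73 for let-7b* at 10 against 3 months (limma adjusted p = 0.281), rest on the detection limit and are no measure of size. The groups of let-7b* at 10 and 3 months were separated there by values set to that limit.

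**Figure D5:**
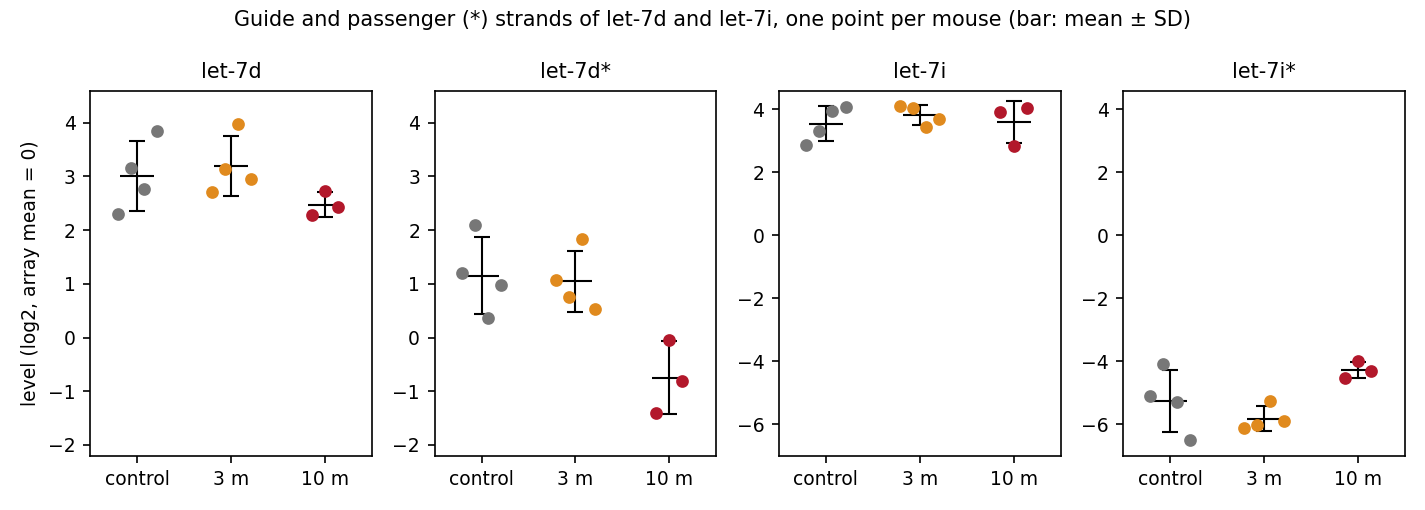
Level (log2, array mean set to 0; the left and right pairs of panels have different vertical scales) of the guides let-7d and let-7i and their passenger strands let-7d* and let-7i* in each mouse, with control, 3 months and 10 months of high fat diet from left to right. Points are mice and bars the mean ± SD; the 10-month points of let-7d* (-1.40 to -0.04) lie below all others, and those of let-7i* (-4.54 to -4.00) lie above all 3-month points.

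The miRs encoded beside let-7 genes include miR-99a, miR-100 and the arms of miR-125a, a vertebrate relative of the worm timing miR lin-4. miR-99b and the arms of miR-125b were also planned, as made from the same primary transcripts as let-7 members. The RefSeq table showed no let-7 gene within 10000 bases of them, which does not exclude a shared transcript. Together 7 miRs were fitted. None passed the limma test in any comparison. miR-125a-3p had levels of -3.81, -3.69, -3.78 and -3.53 in controls, -2.79, -2.46, -2.44 and -2.69 at 3 months and -2.65, -3.11 and -3.50 at 10 months. Both diet-fed groups lay above all 4 controls. Its log2 fold at 3 months was 1.11 (SE 0.25, unadjusted p = 0.00128, limma adjusted p = 0.320), the lowest p of the 353 miRs in that comparison, and at 10 months 0.61 (SE 0.27, limma adjusted p = 0.285). The other arm, miR-125a-5p, gave 0.17 at 3 months and 0.14 at 10 months against control, beside 0.64 and -0.82 for let-7e from the same stretch of chromosome 17. miR-99b gave 0.16 at 3 months and 0.02 at 10 months against control. miR-99a gave -0.73 at 10 months against control (SE 0.37, limma adjusted p = 0.403) and miR-100 -0.32 (SE 0.34, limma adjusted p = 0.744), beside -0.06 for let-7c and -0.58 for let-7a.

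Single markers of other cell types separated between groups beside these results. Over all 353 miRs, groups did not overlap for 15.9% at 10 months and 5.38% at 3 months against control. The share was 12.2% at 10 against 3 months. The summed level of the 5 listed leukocyte miRs spanned 6.06 to 7.18 in controls, 6.17 to 7.04 at 3 months and 6.15 to 8.10 at 10 months, so the sums overlapped, and all 5 were detected in every group. Among them miR-155 was above all controls in every 10-month mouse (log2 fold 1.83, limma adjusted p = 0.0738) and every 3-month mouse (0.73, limma adjusted p = 0.690). miR-142-3p was below all controls in every 3-month mouse (-1.37, limma adjusted p = 0.339), and at 10 against 3 months miR-142-3p (1.22, limma adjusted p = 0.243) and miR-142-5p (0.85, limma adjusted p = 0.454) were higher without overlap. The rest of the list overlapped. At 3 months against control miR-142-5p gave -0.19, miR-223 0.04 and miR-150 0.46. At 10 months against control miR-142-3p gave -0.14, miR-142-5p 0.66, miR-223 0.62 and miR-150 1.49. At 10 against 3 months miR-155 gave 1.09, miR-223 0.58 and miR-150 1.03. The smooth muscle pair miR-143 and miR-145 summed to 11.7 to 12.9 in controls, 12.1 to 12.9 at 3 months and 11.4 to 12.9 at 10 months. miR-145 makes up most of that sum, and miR-143 alone was lower in every 10-month than in every 3-month mouse (-0.49, limma adjusted p = 0.497), the comparison in which let-7e separated. The endothelial pair miR-126-3p and miR-126-5p spanned 8.37 to 8.84 in controls, 8.54 to 9.51 at 3 months and 8.90 to 10.04 at 10 months, with every 10-month mouse above every control. miR-126-3p makes up most of that sum. It gave 1.03 at 10 months against control (SE 0.36, limma adjusted p = 0.139), where miR-126-5p overlapped (0.20, limma adjusted p = 0.800). At 3 months against control the arms gave 0.55 (miR-126-3p) and -0.27 (miR-126-5p), and both overlapped. miR-126-5p was higher without overlap at 10 against 3 months (0.47, limma adjusted p = 0.475), where miR-126-3p overlapped (0.48). The part of these cell types in the let-7 values was not tested.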

How the data were processed

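Threshold cycles of 517 miR assays and 13 control wells in 11 aortas were deposited as a non-normalized table, on the log2 scale with 40 for no amplification; the assays stand in 2 blocks of 335 and 182. RNA with an integrity number above 8, isolated with a mirVana kit, was used per the labels' protocols; no source used here names the instrument or threshold settings. The authors' deposited normalized log2 values equalled each cycle minus the mean of snoRNA202 and snoRNA429, within 5e-05.

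From the cycles, values of 35 or later were set to 35, signs were turned, and the mean over the 285 miRs that every mouse showed was subtracted per array. The 353 miRs detected in at least 3 mice of at least 1 group were fitted over all 3 groups in limma 3.58.1 (R 4.3.3), with Benjamini-Hochberg adjustment; figures were drawn with matplotlib 3.10.9. The fit was tested on simulated data. Exact permutation of single values cannot go below p = 0.0286 with 4 against 4 mice or 0.0571 with 3 against 4. The number of arrays limits the precision.

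Members and lists were chosen with earlier results of these data known. The named miRs were the 9 members, all let-7 passenger assays, the miR-99, miR-100 and miR-125 assays, and the 5 other miRs with the highest correlation with the family mean. That mean was planned over 9 members; with miR-98 at 40 cycles in all mice and let-7f in 1, it was taken over the 7 detected in all. Marker lists for smooth muscle, leukocyte, striated muscle, endothelial, erythroid, epithelial, neural and liver cells were summed per mouse. Replicate numbers in the titles were not taken as pairs of mice. Deviations of same-numbered mice correlated between -0.36 and 0.47. Differently numbered mice were not compared, so this cannot decide whether same-numbered mice share a run.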

Additional observations from a re-analysis of the deposited data

Results flagged for a closer look

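The lowest of the 4 control values of let-7f stood apart from the others, by a gap of 0.852 of the group's range (Dixon's ratio): control replicate 2, at 40 cycles. The same held for let-7b* in control replicate 4 (0.904) and let-7f* in control replicate 4 (0.874), both at 40 cycles. For let-7f* replicate 1 at 3 months was the high value (0.881), as the only detected well of its group. The level of miR-125b-3p in control replicate 3, -4.42, was below the other controls (0.889). Of 46 groups of values examined this way, chance alone sets apart about 1 in 20.

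All 3 mice at 10 months lay below, and all 4 at 3 months above, the control mean of let-7e. The difference itself was -1.46 on the log2 scale, with a limma adjusted p of 0.294.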

How the results depend on the processing

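Of 25 alternatives, 13 kept every mouse, 11 left out 1 mouse each and 1, chosen after seeing the data, left out the latest array of the control and of the 10-month group together. No let-7 member was called under any of them, and the folds of let-7d and let-7e at 10 months against control and of let-7a and let-7e at 10 against 3 months kept their sign in all 25. For each value below the cause of the change was not tested, except that let-7f rests on 1 well at 40 cycles and that fewer miRs or mice were fitted where so named. The arrays' number and their late wells limit the folds: a well at 40 cycles gives only a bound.

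The number of miRs called at 10 months against control was 16. It was 0 with the control assays as the reference, with the deposited values, with only the groups compared and without the latest arrays, 1 with no detection filter, 29 with only miRs detected in every mouse, 6 with the replicate block, and 1 to 12 without 1 mouse. It was 1 without control replicate 2, 2 without control replicate 4 or replicate 1 or 2 at 10 months, 8 without control replicate 1 or replicate 1 or 3 at 3 months, and 10 without control replicate 3 or replicate 2 at 3 months. At 3 months against control, 0 to 1 were called without 1 mouse. At 10 against 3 months 3 were called with quantile normalization, 5 with each assay block centred by itself, 1 with the deposited values and 1 with a variance trend. The replicate numbers were not taken as pairs of mice. The replicate block otherwise turned the sign of let-7c (0.045) and let-7g* (0.026) at 10 months against control and called no member.

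The mean of the 7 members gave -0.36 at 3 months against control and 0.23 at 10 against 3 months with the control assays, where the median of all miRs shifted by -0.81 and 0.97, and -0.094 at 10 against 3 months with the deposited values, where it shifted by 0.63. The following folds, none of them called, changed sign. At 10 months against control, the array median gave let-7c 0.19, let-7g 0.10, let-7c-1* 0.089 and let-7g* 0.11, the deposited values gave let-7c 0.17, let-7g 0.085, let-7c-1* 0.07 and let-7g* 0.091, and the control assays gave let-7c 0.10, let-7g 0.017, let-7c-1* 0.0024 and let-7g* 0.024. There, quantile normalization gave let-7b -0.0077, a limit of 32 cycles gave let-7g* 0.19, undetected wells left missing gave let-7f -0.80, and leaving out the latest arrays gave let-7b -0.31 and let-7f -0.45.

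At 3 months against control, the deposited values gave let-7b -0.039, let-7d -0.18, let-7i -0.084, let-7a* -0.13 and let-7g* -0.23. The control assays gave let-7a -0.13, let-7b -0.43, let-7c -0.022, let-7d -0.57, let-7e -0.11, let-7i -0.48, let-7a* -0.53 and let-7g* -0.63. Blocks centred separately gave let-7d* 0.032, quantile normalization gave let-7g 0.040, and leaving out the latest arrays gave let-7g 0.13, let-7d* 0.23 and let-7g* -0.56.

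At 10 against 3 months, the array median gave let-7b 0.041, let-7g 0.18, let-7i 0.046 and let-7g* 0.0195. The deposited values gave let-7b 0.35, let-7g 0.48, let-7i 0.35 and let-7g* 0.32. The control assays gave let-7b 0.67, let-7c 0.12, let-7d 0.19, let-7g 0.81, let-7i 0.68, let-7a* 0.17 and let-7g* 0.65. They came up at a mean of 21.1 cycles in replicate 2 at 10 months, against 15.6 to 18.1 in the other mice. A limit of 32 cycles gave let-7g* 0.068, and leaving out the latest arrays gave let-7i 0.14 and let-7g* 0.48.

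Leaving out 1 mouse at a time, folds at 10 months against control ran from -0.22 to 0.49 for let-7b, -0.49 to 0.39 for let-7c, -0.79 to 3.57 for let-7f, -0.24 to 0.016 for let-7g, -0.18 to 0.43 for let-7i, -0.92 to 0.0078 for let-7a*, -0.43 to 0.15 for let-7c-1* and -0.83 to 0.61 for let-7g*. At 3 months against control they ran from -0.076 to 0.46 for let-7d, -0.14 to 0.11 for let-7g, -0.076 to 0.42 for let-7a*, -0.37 to 0.21 for let-7d* and -0.58 to 0.49 for let-7g*. At 10 against 3 months they ran from -0.50 to 0.17 for let-7b, -0.45 to 0.14 for let-7i and -0.65 to 0.48 for let-7g*. Folds that kept their sign also moved: at 10 months against control they ran from -0.95 to -0.094 for let-7a, -0.78 to -0.27 for let-7d and -1.13 to -0.45 for let-7e, each nearest 0 without control replicate 4, at 3 months from 0.20 to 1.11 for let-7a and 0.28 to 1.01 for let-7e, and at 10 against 3 months from -1.57 to -0.78 for let-7a, -0.88 to -0.46 for let-7d and -1.62 to -1.09 for let-7e, each nearest 0 without replicate 3 at 3 months. The mean of the 7 ran from -0.55 to 0.021, 0.12 to 0.70 and -0.82 to -0.47 in the same order of comparisons.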

Other observations

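Marker lists not described above gave these summed levels. The erythroid pair spanned 2.65 to 4.90, 2.92 to 3.85 and 2.06 to 4.24 in controls, at 3 and at 10 months, and overlapped in all groups. The 7 epithelial miRs spanned 1.97 to 3.38, 2.34 to 2.82 and 2.51 to 2.94, the 3 neural miRs -0.03 to 0.86, -0.03 to 1.10 and -0.14 to 0.77, and the liver miR-122 -2.84 to 2.07, -0.22 to 1.51 and -0.50 to 0.95, in the same order of groups. All of these overlapped between groups.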
